A study of Mus musculus with 11 samples.

Results

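Gucy2d, Pde2a, Cnga3, Car2 and Gucy1b2 are genes by which guanylyl cyclase olfactory neurons are recognised. They were chosen by symbol, and their 5 entries were read from a table of raw counts with 24421 entries, in all 11 libraries and also relative to Omp, a transcript of mature olfactory sensory neurons (OSNs). The libraries came from the whole main olfactory epithelium (MOE), the sheet of the nose in which OSNs lie, in a study of mice with a germline deletion of the olfactory trace amine-associated receptor (Taar) cluster from Taar2 to Taar9. The cluster was intact on both chromosomes in wild type mice (n = 3), deleted on 1 in heterozygous mice (n = 4) and deleted on both in homozygous mice (n = 4). All 11 libraries were labelled as C57BL/6 and P1-P2 (postnatal days 1 to 2), whereas the paper's reporting section describes an older age and a mixed background for this line. It could not be settled which holds for these mice. The labels give no sex, litter, dissection date or number of mice per library, so p-values measure the spread between these libraries, which may be technical.

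Most OSNs detect odours through receptors coupled to the G protein Gnal, which activates the adenylyl cyclase Adcy3, and the cAMP formed opens a channel built on Cnga2. A small population uses cGMP instead. These cells, called GC-D or necklace neurons after the ring of olfactory bulb glomeruli that they innervate, carry the receptor guanylyl cyclase GC-D encoded by mouse Gucy2d, the cGMP-gated channel subunit Cnga3, the cGMP-stimulated phosphodiesterase Pde2a and the carbonic anhydrase Car2, and they respond to carbon dioxide, carbon disulphide and the peptides guanylin and uroguanylin. Gucy1b2 encodes a beta subunit of a soluble guanylyl cyclase and marks another small population, the type B cells, which carry the channel Trpc2 and respond to low oxygen. Gucy2d and Gucy1b2 are thus the cyclases of different cells, and mouse Gucy2d is not the retinal cyclase Gucy2e.

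All 5 genes were detected in all 11 libraries, at levels far apart. Since longer transcripts give more counts, levels of different genes were compared as CPM (counts scaled by TMM to a common library total) divided by the kilobases of exon. The mean over the 11 libraries was 13.0 ± 2.87 CPM per kb (SD) for Car2 and 6.44 ± 0.893 for Pde2a. Both were well above the cyclases, with 1.09 ± 0.339 CPM per kb for Gucy1b2 and 0.880 ± 0.279 for Gucy2d, and above the channel, with 0.243 ± 0.116 for Cnga3. Car2 exceeded Pde2a, and Pde2a exceeded Gucy1b2, in 11 of 11 libraries with ranges that did not overlap. Gucy1b2 and Gucy2d could not be ordered, because Gucy1b2 was the higher in only 6 of the 11 libraries. Cnga3 lay below Gucy2d in 11 of 11 libraries, although the ranges across libraries overlapped. The reference transcript Omp reached 233.5 ± 52.5 CPM per kb, and per kb the genes stood at 5.68% (Car2), 2.87% (Pde2a), 0.488% (Gucy1b2), 0.386% (Gucy2d) and 0.111% (Cnga3) of it. The levels of Car2 and Pde2a are summed over every cell of the tissue, and both genes are known from other cell types as well.

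**Figure D1:**
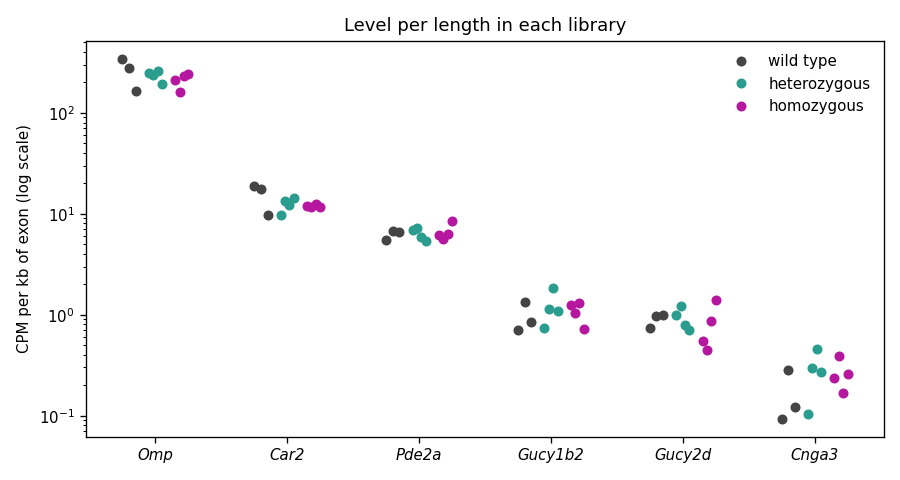
Level of each gene in each library as CPM per kilobase of exon, on a log axis, with 1 point per library coloured by genotype (3 wild type, 4 heterozygous and 4 homozygous). Car2 and Pde2a lie above the cyclases Gucy1b2 and Gucy2d, which overlap, Cnga3 lies lowest and Omp highest, in each genotype.

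In the mm10 assembly, Gucy2d lies on chromosome 7 (98440416 to 98477479, plus strand, 4102 bp of exon), 294.9 kb from Omp (98143359 to 98145502, minus strand, a single exon of 2144 bp within Capn5, with which it shares 0 exon bases). Pde2a follows on chromosome 7 (101421691 to 101512827, plus strand, 6149 bp of exon). Cnga3 lies on chromosome 1 (37214434 to 37263384, plus strand, 3957 bp), Car2 on chromosome 3 (14886273 to 14900770, plus strand, 2422 bp) and Gucy1b2 on chromosome 14 (62392676 to 62456289, minus strand, 2745 bp). Each gene is annotated as protein coding in GENCODE M21, whose exon lengths are given here. Whether the raw counts were summed over the same exons is not known. For Pde2a, 64.3% of the exon bases are shared with the same-strand gene model Gm45837, which has no entry among the raw counts. How reads on these bases were assigned is uncertain, because the annotation used for counting is not given.

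The depth was 9239866 to 14632525 counts per library. The 14 deleted Taar genes summed to 87 to 119 counts in wild type, 31 to 96 in heterozygous and 1 to 3 in homozygous libraries, so each homozygous library matched its label. Principal component 1, with 41.6% of the variance, split the libraries across genotypes. The first side, set 1, was made up of replicates 1 and 2 of the wild type, 3 and 4 of the heterozygous and 1 and 2 of the homozygous genotype (6 libraries). The remaining 5 libraries made up set 2, and no label says what sets them apart. All 13 markers of mature OSNs were detected, as the tissue label implies. Trpc2, the partner of Gucy1b2 in type B cells, was listed at 0 in all 11 libraries, as was the gene Xntrpc, which shares 97.5% of its exon bases, so the type B label could not be checked through Trpc2.

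Values of single libraries are given in replicate order. Gucy2d, the receptor of the GC-D neurons, was counted 33, 50 and 50 times in the wild type. Its counts were 60, 64, 34 and 27 in the heterozygous libraries and 27, 17, 48 and 67 in the homozygous libraries. The homozygous libraries thus held both the lowest and the highest count of the series. Scaled to library size, the level was 3.70 ± 0.557 CPM (SD, n = 3) in wild type, 3.80 ± 0.954 (n = 4) in heterozygous and 3.35 ± 1.76 (n = 4) in homozygous libraries, and the genotypes overlapped. The fold change was 0.909 (95% confidence interval 0.520 to 1.59) for homozygous against wild type, 1.03 (0.590 to 1.80) for heterozygous against wild type and 0.882 (0.526 to 1.48) for homozygous against heterozygous libraries. These intervals leave room for a fall to about the lower bound or a rise to the upper one. In these bulk samples fewer cells of a type and less RNA per cell cannot be told apart.

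Cnga3, the cGMP-gated channel subunit, was the least counted gene, with 4, 14 and 6 counts in the wild type. Its counts were 6, 15, 19 and 10 in the heterozygous libraries and 11, 14, 9 and 12 in the homozygous libraries. The level was 0.659 ± 0.405 CPM in wild type, 1.11 ± 0.570 in heterozygous and 1.04 ± 0.363 in homozygous libraries, so the lowest mean was that of the wild type, yet wild type replicate 2 lay above 2 of the 4 heterozygous and 3 of the 4 homozygous libraries. At this depth the fold changes were poorly fixed, at 1.53 (0.670 to 3.47) for homozygous against wild type and 1.64 (0.723 to 3.72) for heterozygous against wild type. On the log2 scale these are 0.61 and 0.71, and without wild type replicate 2 they were 1.23 (SE 0.62) and 1.33 (SE 0.62), so that 1 library moved both values, and neither passed the test. For homozygous against heterozygous libraries the fold change was 0.931 (0.450 to 1.93).

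Pde2a, the phosphodiesterase that cGMP stimulates, varied least of the 5 genes in CPM over the 11 libraries. Its counts were 365, 519 and 504 in the wild type, 625, 572, 381 and 307 in the heterozygous libraries and 453, 319, 528 and 599 in the homozygous libraries. The level was 38.7 ± 4.26 CPM in wild type, 39.1 ± 5.56 in heterozygous and 40.8 ± 7.38 in homozygous libraries, and all 3 ranges overlapped. The fold changes were 1.05 (0.814 to 1.36) for homozygous against wild type, 1.01 (0.780 to 1.31) for heterozygous against wild type and 1.04 (0.822 to 1.32) for homozygous against heterozygous libraries. A change of Pde2a beyond these bounds is outside the intervals, which were the narrowest of the 5 genes.

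Car2, the carbonic anhydrase that hydrates carbon dioxide to bicarbonate, had the lowest p of the 5 genes in the comparison of homozygous with wild type libraries. The wild type libraries were at 45.4, 42.6 and 23.7 CPM. Heterozygous libraries were at 23.7, 32.2, 29.5 and 34.5 CPM, and homozygous libraries at 28.7, 28.0, 30.5 and 28.3 CPM. Wild type replicates 1 and 2 lay above all 8 libraries with the deletion, and wild type replicate 3 lay within them. The mean was 37.2 ± 11.8 CPM in wild type, 29.9 ± 4.66 in heterozygous and 28.9 ± 1.12 in homozygous libraries. The fold change was 0.776 (0.565 to 1.07) for homozygous against wild type and 0.804 (0.585 to 1.10) for heterozygous against wild type, neither of which passed the test, and 0.966 (0.718 to 1.30) for homozygous against heterozygous libraries.

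The Car2 value differed between the library sets and with the wild type library left out. Within set 1 the homozygous libraries were lower than wild type by a log2 difference of -0.63 (2 against 2 libraries), and within set 2 they were higher by 0.31 (2 against 1), so the direction did not hold within both sets. Per 1000 counts of Omp, the reference transcript, both directions were the opposite, at 0.12 in set 1 and -0.23 in set 2. Without wild type replicate 3 the log2 fold change was -0.61 (SE 0.16, edgeR adjusted p = 0.783) and without wild type replicate 1 it was -0.20. Without wild type replicate 3 the value for heterozygous against wild type was -0.56. Both values without that replicate passed the unadjusted threshold of 0.05 and neither the adjusted one.

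Gucy1b2, the soluble cyclase subunit of type B cells, was counted 21, 46 and 29 times in the wild type. Its counts were 30, 40, 53 and 28 in the heterozygous libraries and 41, 26, 49 and 23 in the homozygous libraries. The lowest count was in wild type replicate 1 and the highest in heterozygous replicate 3. Its level was 2.66 ± 0.913 CPM in wild type, 3.30 ± 1.25 in heterozygous and 2.96 ± 0.735 in homozygous libraries. The fold changes were 1.11 (0.649 to 1.91) for homozygous against wild type, 1.23 (0.717 to 2.11) for heterozygous against wild type and 0.905 (0.550 to 1.49) for homozygous against heterozygous libraries.

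**Figure D2:**
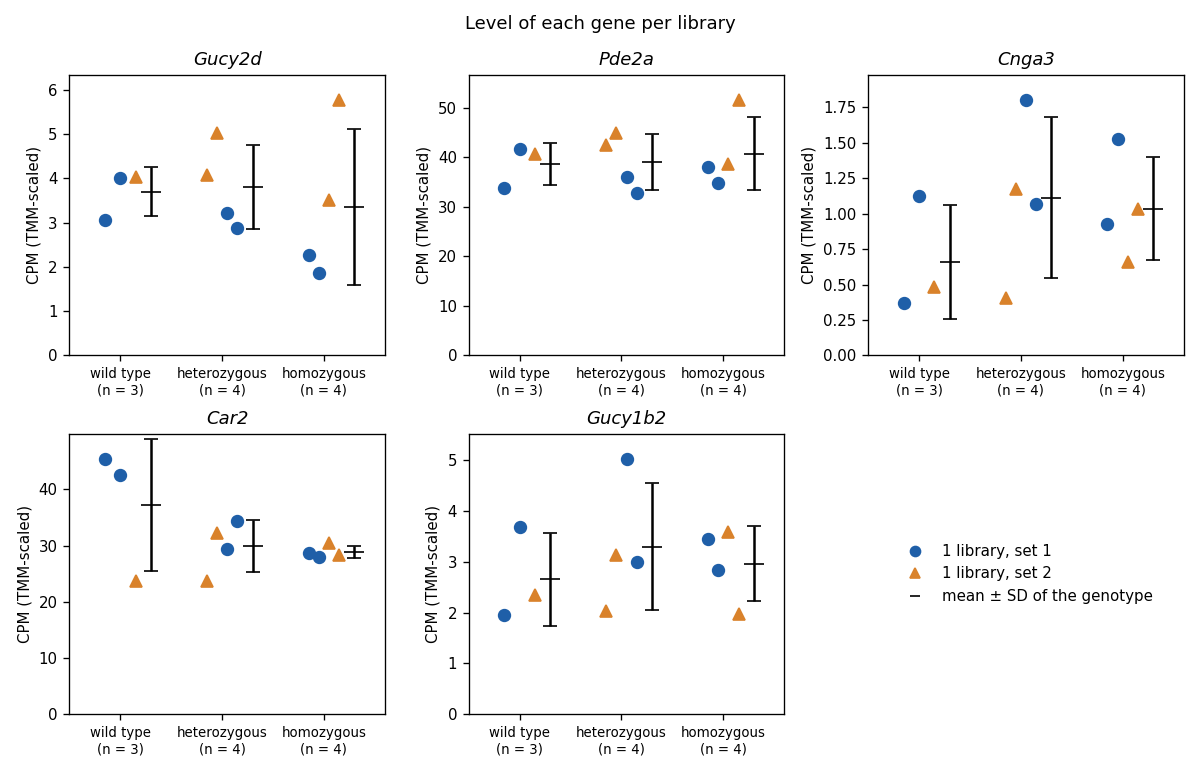
CPM of each of the 5 genes in each library, by genotype, with circles for library set 1, triangles for set 2 and the mean ± SD of each genotype beside the points. The genotypes overlap for every gene, the homozygous libraries of Gucy2d run from 1.85 to 5.77 CPM, and for Car2 wild type replicates 1 and 2 stand above all libraries with the deletion.

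All 5 genes passed the filter on low counts, and 0 of 5 passed an adjusted p of 0.05 in any of the 3 comparisons with edgeR. The background was as low. Of 16574 genes tested, 0 (0%) passed in each of the 3 comparisons. At an unadjusted p under 0.05, 0 of the 5 genes passed, against 3.02% of all genes tested for homozygous against wild type, 2.24% for heterozygous against wild type and 0.561% for homozygous against heterozygous libraries. With DESeq2 as the test, 0 of the 5 genes passed with or without adjustment, and 8, 3 and 2 of all genes passed the adjusted threshold in the respective comparisons. For 0 of the 5 genes the libraries of the compared genotypes did not overlap, which held for 4.99%, 2.51% and 0.597% of all genes tested. The median log2 fold change of the 5 genes for homozygous against wild type was 0.076, with 3 positive and 2 negative values, beside 0.015 over all genes tested. For heterozygous against wild type it was 0.043 beside 0.0018, and for homozygous against heterozygous libraries -0.10 beside 0.0062. For homozygous against wild type the deviations from the genotype means correlated in the same-numbered pairs of replicates 1 to 3. Pairs of unlike number within a library set correlated as well, so a pairing by number was not shown. With the replicate number as a block in the 6 libraries of replicates 1 to 3, 0 of the 5 genes passed the adjusted or the unadjusted threshold, beside 0.194% (31) and 6.35% of 15968 genes tested. The log2 fold changes were then -0.54 (SE 0.29) for Gucy2d, 0.67 (SE 0.42) for Cnga3, -0.051 (SE 0.14) for Pde2a, -0.30 (SE 0.21) for Car2 and 0.35 (SE 0.32) for Gucy1b2. The comparisons share libraries, so their values are not independent of each other. A count of 0 among 5 genes is near each of these backgrounds and so is no result about these genes in particular.

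**Figure D3:**
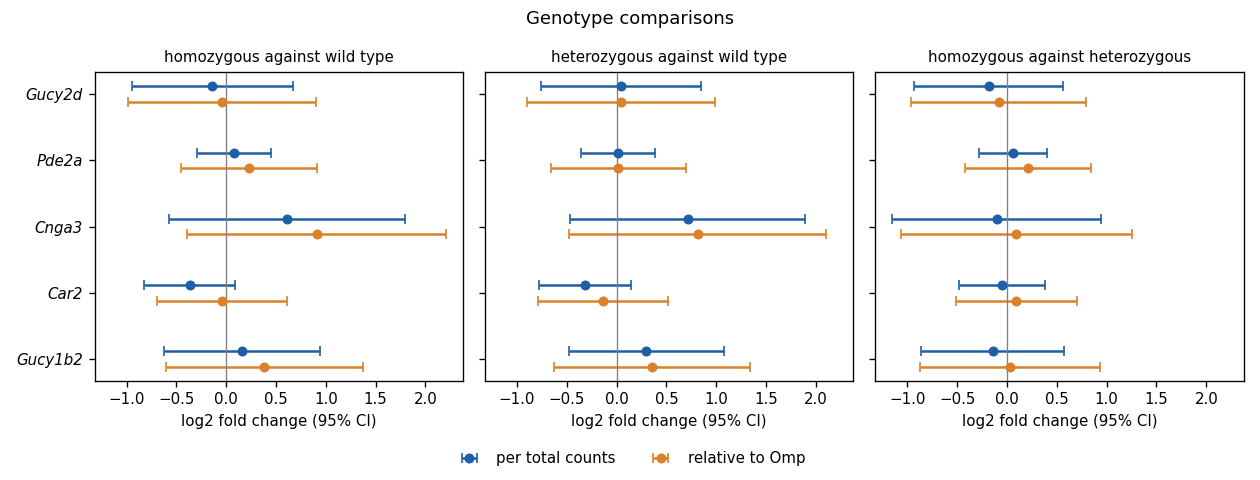
Log2 fold change with its 95% confidence interval (edgeR) for each gene in the 3 genotype comparisons, per total counts (blue) and relative to Omp (orange). Every interval includes 0, those of Pde2a and Car2 per total counts are the narrowest and those of Cnga3 the widest.

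Because the 5 genes are known as genes of olfactory neurons, they were next expressed per Omp count, to compare them at an equal amount of a mature OSN transcript. Omp itself was at 562 ± 197 CPM in wild type, 502 ± 61.3 in heterozygous and 454 ± 77.7 in homozygous libraries. Its log2 fold change was -0.31 (SE 0.24) for homozygous against wild type, which did not pass the test (edgeR adjusted p = 0.996). In wild type the 3 libraries were at 737, 599 and 349 CPM, which is more than the spread within either other genotype. All 13 markers of mature OSNs had a negative log2 fold change in this comparison (median -0.28), and 0 of 13 passed an adjusted p of 0.05. At an unadjusted p under 0.05, 2 of 13 passed, both lower, beside 3.02% of all genes tested. For heterozygous against wild type 13 of 13 were negative as well (median -0.19). Relative to Omp the other 12 had 5 positive and 7 negative values for homozygous against wild type (median -0.013), and 10 of 12 were negative for heterozygous against wild type (median -0.085). These medians lie below those of all genes on the same scale, since dividing by Omp raised the median of all 16573 other genes to 0.22 for homozygous against wild type, 0.042 for heterozygous against wild type and 0.16 for homozygous against heterozygous libraries, and the values below are to be read relative to these shifts.

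Per 1000 Omp counts, Gucy2d had 4.15, 6.69 and 11.6 counts in the wild type. It had 7.65, 9.89, 5.83 and 6.98 in the heterozygous libraries and 5.04, 5.35, 7.12 and 11.01 in the homozygous libraries. The means of the genotypes, 7.47 ± 3.77, 7.59 ± 1.71 and 7.13 ± 2.74, differed by much less than the libraries within each. Gucy1b2 had 2.64, 6.15 and 6.71 counts per 1000 Omp counts in wild type, and its homozygous libraries 1 to 3 (7.65, 8.18 and 7.27) lay above all of them while homozygous replicate 4 (3.78) did not. For Cnga3 the wild type values were 0.503, 1.87 and 1.39 and the homozygous values 2.05, 4.41, 1.34 and 1.97. Here too 3 of the 4 homozygous libraries exceeded all wild type ones. So did 3 of the 4 heterozygous libraries for Cnga3 (0.765, 2.32, 3.26 and 2.59) and 2 of the 4 for Gucy1b2 (3.83, 6.18, 9.09 and 7.24). Pde2a spanned 45.9 to 116.7 per 1000 Omp counts within the wild type alone, a range that enclosed all 8 libraries with the deletion (65.4 to 100.4). Car2 was 66.9 ± 4.81 in wild type, 61.1 ± 16.7 in heterozygous and 65.1 ± 11.3 in homozygous libraries.

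**Figure D4:**
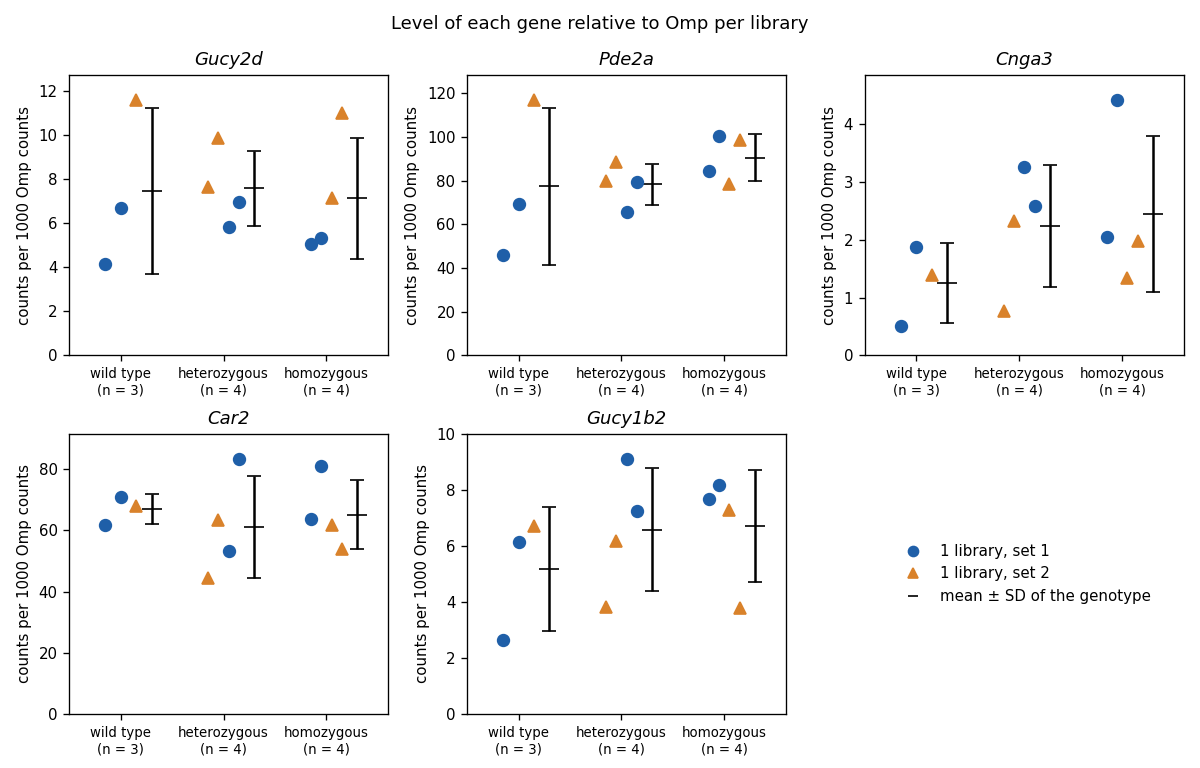
Counts of each gene per 1000 Omp counts in each library, by genotype, with circles for library set 1, triangles for set 2 and the mean ± SD of each genotype. For Gucy2d the triangles (7.12 to 11.6) lie above all circles (4.15 to 6.98), and for Pde2a the wild type libraries span the range of all others.

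In the fit relative to Omp, 0 of the 5 genes passed the adjusted or the unadjusted threshold of 0.05 in any comparison. Among all genes tested, 2 (0.0121%) passed the adjusted threshold for homozygous against wild type, which were the deleted Taar6 and Taar7e (named after their values were seen), and 0 (0%) in the other comparisons. The unadjusted threshold was passed by 2.05%, 1.33% and 0.368% of genes. No gene of the 5 had genotypes that did not overlap, against 1.76%, 0.821% and 1.03% of all genes. The log2 fold changes for homozygous against wild type were -0.042 (SE 0.46) for Gucy2d, 0.91 (SE 0.63) for Cnga3, 0.23 (SE 0.33) for Pde2a, -0.042 (SE 0.32) for Car2 and 0.38 (SE 0.48) for Gucy1b2, with edgeR adjusted p-values of 0.986 to 0.992. For heterozygous against wild type they were 0.041, 0.81, 0.019, -0.13 and 0.35 in the same order of genes, and for homozygous against heterozygous libraries -0.083, 0.095, 0.21, 0.092 and 0.029. With the replicate number as a block in replicates 1 to 3 of both genotypes, added after the data were seen, the values for homozygous against wild type were -0.26 (SE 0.61) for Gucy2d, 1.06 (SE 0.67) for Cnga3, 0.28 (SE 0.56) for Pde2a, 0.031 (SE 0.55) for Car2 and 0.67 (SE 0.62) for Gucy1b2. Of the 5 genes 0 passed either threshold, beside 0.294% (47) by the adjusted and 1.4% by the unadjusted one of 15967 genes tested. The Car2 difference of -0.37 per total counts was -0.042 relative to Omp. The Pde2a value for homozygous against wild type moved with the wild type libraries. Without replicate 3 it was 0.65 (SE 0.25, edgeR adjusted p = 0.0871), past the unadjusted threshold, and without replicate 1 it was -0.040. Per total counts the same values of Pde2a were 0.11 (SE 0.20) and -0.012 (SE 0.19). The shift of 0.22 over all genes is that of the fit with all 11 libraries and was not worked out for these fits.

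The library sets separated Gucy2d more than the genotypes did. Gucy2d was at 2.88 ± 0.754 CPM in the 6 libraries of set 1 and at 4.48 ± 0.898 in the 5 of set 2, a ratio of 1.56, with the ranges overlapping (1.85 to 4.01 and 3.52 to 5.77). Per 1000 Omp counts it was 5.67 ± 1.06 in set 1 and 9.45 ± 1.99 in set 2, and these ranges did not overlap (4.15 to 6.98 and 7.12 to 11.6). The sets were defined by all tested genes together, so this is a description and has no test. A gene higher in every library of set 2 was common, at 16.0% of all genes tested by CPM and 6.84% relative to Omp. Pde2a leaned the same way, with 36.2 CPM in set 1 and 43.7 in set 2. The other 3 genes leaned the opposite way in CPM, with 34.8 and 27.7 for Car2, 3.32 and 2.62 for Gucy1b2 and 1.14 and 0.752 for Cnga3, in sets 1 and 2, and all of these ranges overlapped. Within set 1 the homozygous libraries had a lower Gucy2d level than wild type by a log2 CPM difference of -0.78 (2.06 against 3.53 CPM, 2 libraries each), whereas within set 2 it was 0.20 higher (2 libraries against 1). Per 1000 Omp counts the same differences for Gucy2d were -0.061 in set 1 and -0.35 in set 2. In CPM the differences in sets 1 and 2 were 0.16 and 0.25 for Gucy1b2, 0.72 and 0.81 for Cnga3 and -0.049 and 0.15 for Pde2a. Per 1000 Omp counts they were 0.85 and -0.28 for Gucy1b2, 1.44 and 0.25 for Cnga3 and 0.68 and -0.40 for Pde2a, so on this scale the direction differed between the sets for Gucy1b2, Pde2a and Car2.

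The coefficient of variation of CPM over the 11 libraries was 31.6% for Gucy2d, where counting error alone would give 15.5%, and 31.0% for Gucy1b2, against 17.0%. It was 47.5% for Cnga3 (30.0% from counting), 13.9% for Pde2a (4.68%) and 22.0% for Car2 (5.24%). Dividing by Omp, with its own coefficient of variation of 22.5%, lowered the spread only for Car2, to 18.0%. It raised the spread to 33.2% for Gucy2d, 32.4% for Gucy1b2, 54.5% for Cnga3 and 23.1% for Pde2a, so that Car2 varied least on this scale.

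To see whether the 4 genes of the GC-D neurons varied together, their log2 CPM was correlated across the 11 libraries after the mean of each set was removed. These are descriptions with n = 11 libraries that share depth and tissue composition. For Gucy2d the value was r = 0.63 with Omp, r = 0.62 with Pde2a and r = 0.58 with Car2, and r = 0.13 with its channel Cnga3, whose counts are low. Omp, Pde2a and Car2 ranked 319, 361 and 521 among 14847 genes by this value. The values depended on the centring, and without it they were 0.35 with Omp, 0.82 with Pde2a and -0.060 with Car2. With Gucy1b2, the gene of the other cell population, the value was r = 0.015. It was r = 0.62 for Gucy1b2 with Cnga3 and r = 0.70 for Car2 with Omp. Among the other pairs of GC-D genes, Pde2a and Cnga3 had r = 0.39, Pde2a and Car2 r = 0.13, and Cnga3 and Car2 were negative (r = -0.23, and -0.71 in set 1 alone). Gucy1b2 had r = 0.0088 with Pde2a and r = -0.12 with Car2. In set 1 alone the values of Gucy2d were 0.40 with Pde2a, 0.70 with Car2, -0.15 with Cnga3 and 0.24 with Gucy1b2. Those of Gucy1b2 were 0.49 with Pde2a, -0.50 with Car2 and 0.82 with Cnga3. Pde2a had 0.21 with Cnga3 and 0.11 with Car2 in set 1. Without the centring the sign turned for all pairs among the 5 genes except Gucy2d with Pde2a and Gucy1b2 with Cnga3 (0.68). The uncentred values were -0.20 for Gucy2d with Cnga3, -0.27 for Gucy2d with Gucy1b2, -0.32 for Pde2a with Car2, -0.037 for Pde2a with Cnga3 and 0.039 for Cnga3 with Car2. For Gucy1b2 they were -0.28 with Pde2a and 0.12 with Car2, and Car2 with Omp stayed at 0.64. The 3 genes most correlated with each gene were chosen as the highest, so they are no yardstick for the pairs above. These were Smpd4, Scpep1 and Acsbg1 for Gucy2d (r = 0.89 to 0.91), Usp42, Timeless and Slc43a3 for Pde2a (r = 0.88 to 0.93), Stbd1, Fgfr4 and Magel2 for Cnga3 (r = 0.86 to 0.90), Acad12, Kif24 and Tlr5 for Car2 (r = 0.94 to 0.95) and Cd109, Ltbp1 and Calu for Gucy1b2 (r = 0.91 to 0.97), chosen as the highest among at least 14847 genes with a mean count of at least 20.

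The wider pathway was read from 6 lists with 82 symbols, of which 54 could be tested. In each comparison 0 of 54 passed an adjusted p of 0.05 with edgeR. At an unadjusted p under 0.05, 5 of 54 (9.26%, beside 3.02% of all genes tested) passed for homozygous against wild type, 4 higher and 1 lower. For heterozygous against wild type 5 of 54 passed (9.26%, beside 2.24%), all higher, and for homozygous against heterozygous libraries 0. Relative to Omp these were 4 of 54 (7.41%, beside 2.05%), 2 of 54 (3.70%, beside 1.33%) and 0. The lists were chosen with earlier results of these data known, so these shares are no independent evidence. Both comparisons with wild type use the same wild type libraries, and Npr1 and Car14 passed in both per total counts. In the order of the pathway, the ligands come first. The uroguanylin gene Guca2b was listed at 0 in all 11 libraries, and the guanylin gene Guca2a had 0 to 3 counts, so neither gene of the peptides that GC-D recognises could be measured in the MOE at this depth, where a count of 0 allows up to 3 counts in a library. The nitric oxide synthases, whose product activates soluble cyclases, were detected at 15.7 CPM (Nos3), 7.76 (Nos1) and 2.24 (Nos2), and Guca1b, a calcium-binding activator of retinal cyclases, at 0.896 CPM. Of the 6 genes tested in this list, Guca1a, an activator of the same kind, was the one that passed an unadjusted p of 0.05, with a log2 fold change of 1.15 (SE 0.50, adjusted p = 0.996, edgeR) for homozygous against wild type at 4 to 14 counts per library.

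Among the other guanylyl cyclases, the natriuretic peptide receptors had the highest CPM, with 102 CPM for Npr2 and 36.4 for Npr1, followed by the soluble subunits Gucy1a3 (16.7) and Gucy1b3 (9.89). Gucy1a3 and Gucy1b3 form the widespread soluble cyclase. Npr1 had 24.1 CPM in wild type, 44.3 in heterozygous and 37.9 in homozygous libraries, with log2 fold changes against wild type of 0.88 (SE 0.30) and 0.66 (SE 0.30), both short of the adjusted threshold. The retinal cyclase Gucy2e had a log2 fold change of 0.63 (SE 0.27, adjusted p = 0.996, edgeR) for homozygous against wild type. Of the 8 cyclases tested, 5 had a positive and 3 a negative log2 fold change in that comparison, with a median of 0.088.

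Of 22 other genes with a Pde symbol, 18 were tested. The highest CPM was that of Pde4a (107 CPM), Pde6d (85.7), Pde7b (83.5) and Pde1c (76.2), the last being the phosphodiesterase of the cilia of canonical OSNs. Pde3b had a log2 fold change of -0.45 (SE 0.20) for homozygous against wild type. For heterozygous against wild type it was 0.90 (SE 0.39) for Pde6c and 1.46 (SE 0.52) for Pde10a, which ranged from 5.49 to 34.3 CPM over the libraries. Relative to Omp, Pde10a was at 1.11 (SE 0.50) for homozygous and 1.45 (SE 0.51) for heterozygous against wild type, both past the unadjusted threshold. None of these passed the adjusted threshold. The channel list held the canonical subunits Cnga2 (151 CPM), Cngb1 (48.0) and Cnga4 (35.7) and the cGMP-dependent kinase Prkg1 (43.4), all with a negative log2 fold change for homozygous against wild type (5 of 5 tested, median -0.28, 0 past the adjusted threshold). Relative to Omp their median was -0.020, below the median of 0.22 over all genes on that scale. Per kb, Cnga2 was at 48.9 CPM and Cnga3 at 0.243. Cngb3, the partner of Cnga3 in cones, had 2 to 7 counts and was too low to be tested.

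Of 15 other genes with a Car symbol, 13 were tested. Car6, a secreted enzyme, had the highest mean at 175 CPM and by far the widest range, from 0.516 to 561 CPM over the libraries. Car11, Car12 and Car3 followed with 29.0, 28.5 and 11.3 CPM. Car14 passed an unadjusted p of 0.05 with log2 fold changes of 1.08 (SE 0.41) for homozygous and 0.96 (SE 0.41) for heterozygous against wild type, at 4 to 12 counts per library and far from the adjusted threshold. The Ms4a genes encode membrane proteins described as odour receptors of the necklace neurons. Of 19 listed symbols 16 were analysed, and 4 had enough counts to be tested, Ms4a6c (6.89 CPM), Ms4a7 (6.77), Ms4a6d (5.32) and Ms4a6b (4.31), which are also expressed in macrophages. Ms4a6d had a log2 fold change of 0.77 (SE 0.35), short of the adjusted threshold, for heterozygous against wild type. All 4 tested Ms4a genes had positive values in both comparisons with wild type, with a median of 0.42 in homozygous and 0.32 in heterozygous libraries. Of 6 tested immune cell markers, 5 were positive for homozygous (median 0.34) and 6 for heterozygous against wild type (median 0.21). The immune marker sum was 114 to 124 CPM in wild type, 117 to 150 in heterozygous and 130 to 169 in homozygous libraries, and its part in the Ms4a values was not tested.

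Since Car2 is abundant in red cells and osteoclasts and Pde2a is known from endothelium, markers of these cells were set beside them. All 8 osteoclast markers were detected, and their sum ranged from 202 to 721 CPM in wild type, 228 to 759 in heterozygous and 212 to 518 in homozygous libraries. The 3 libraries with the highest Car2 were wild type replicate 1 (45.4 CPM of Car2, osteoclast sum 203 CPM), wild type replicate 2 (42.6 and 721 CPM) and heterozygous replicate 4 (34.5 and 759 CPM). The latter pair held the highest osteoclast sums of the series, and the part of these markers in Car2 was not tested. Of the 11 red cell markers 9 were analysed. The adult globin genes Hba-a1, Hba-a2, Hbb-bs and Hbb-bt were listed at 0 in all libraries, whereas Alas2, the haem synthesis enzyme of red cells, had 101 to 217 counts. The red cell sum was 9.94 to 15.3 CPM in wild type, 8.77 to 15.4 in heterozygous and 10.05 to 20.7 in homozygous libraries, and its part in Car2 was not tested. The 8 endothelial markers summed to 351 to 440 CPM in set 1 and 248 to 326 in set 2, the reverse of the order of Pde2a and Gucy2d. By genotype the endothelial sum was 262 to 412 CPM in wild type, 248 to 402 in heterozygous and 300.4 to 440 in homozygous libraries. Its part in the Pde2a values was not tested.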

How the data were processed

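RNA-seq was performed on 11 MOE libraries (RNeasy extraction, polyA selection, directional NEBNext kit). According to their notes and methods, the authors trimmed the reads (Trimmomatic 0.36), aligned them to mm10 (HISAT2 2.1.0) and deposited raw counts per gene (featureCounts, Subread 1.6.2), together with a normalised signal, in which each library's counts were scaled by a size factor of its own (DESeq2 1.20.0). The annotation, strand setting and handling of multi-mapping reads are not given in the sources used here. The signal table served only to choose genes for 1 alternative.

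Raw counts were tested with edgeR 4.0.16 (TMM, filterByExpr by genotype, quasi-likelihood fit of 3 genotypes over 11 libraries, two-sided tests, Benjamini-Hochberg adjustment over all 16574 tested genes, threshold 0.05) in R 4.3.3. A second fit took the Omp count as the library size (16573 genes). The code was tested on simulated data. DESeq2 1.42.0 was an alternative. Coordinates and merged exon lengths came from GENCODE M21. Log2 CPM used a prior count of 2. The genes, marker lists and pathway lists were chosen with earlier results of these data known. Named genes were these 5, the 3 most correlated with each (log2 CPM centred within library sets), the 4 of highest CPM in each pathway list and any list gene with an unadjusted p under 0.05. Guca2a, Guca2b and Cngb3 fall outside this rule and were named after their values were seen. Deviations from the genotype means correlated over 0.1 in 3 of 3 same-numbered pairs of wild type and homozygous libraries (r = 0.33 to 0.42). Values with a replicate block are therefore given beside the main ones. Wild type replicate 1 correlated more with homozygous replicate 2 (r = 0.36), and wild type replicate 3 more with homozygous replicate 4 (r = 0.47). The labels name no shared litter or animal, and each of these pairs lies within 1 library set. Pairing by number and the library set could thus not be told apart. The other same-numbered pairs had r = -0.58 to -0.19. Intervals cover the spread between libraries, and the counting error within it.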

Additional observations from a re-analysis of the deposited data

How the results depend on the processing

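The limits are depth and design. Cnga3 had 4 to 19 counts per library and the cyclases 17 to 67, and wild type had 3 libraries, only 1 of them in set 2. Under other scalings, filters, tests and covariates, 173 of 180 values for the 5 genes kept their direction and 7 changed it, all of them small, and 0 passed the threshold of 0.05 (edgeR and DESeq2). Leaving out 1 library at a time gave 330 values, of which 40 changed direction, 0 passed the adjusted threshold and 3 passed the unadjusted one. All 3 were without wild type replicate 3, namely Car2 for homozygous and for heterozygous against wild type and Pde2a relative to Omp for homozygous against wild type. The cause of these changes was not tested.

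The values that changed direction were as follows. With the library set as covariate, heterozygous against wild type was -0.11 for Gucy2d and -0.041 for Pde2a, and relative to Omp -0.036 for Gucy2d. With the replicate block in the fit of 3 genotypes it was -0.023 for Gucy2d and -0.0053 for Pde2a, and with the replicate block in the fit of 2 genotypes Pde2a was -0.051 for homozygous against wild type. With 7 OSN signalling genes in place of Omp, Gucy2d was 0.038 for homozygous against wild type. The added replicate block relative to Omp with 2 genotypes gave 0.031 for Car2 in that comparison. Same-numbered libraries correlated positively only for homozygous against wild type, where pairs of unlike number in the same set correlated too. Of the 11 libraries 0 correlated best with its own number, and no replicate block changed a call of the 5 genes.

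The counts of all genes past the adjusted threshold depended on the setting. The order below is homozygous then heterozygous libraries against wild type, then homozygous against heterozygous ones. With DESeq2 the counts were 8, 3 and 2 in place of 0. The replicate block with 2 genotypes gave 31 and 5 in the first and second of these. Relative to Omp the main counts of 2, 0 and 0 became 0 in the first with the 7 genes as reference, 10, 4 and 2 without the filter, 68, 42 and 11 with the replicate block in 3 genotypes, 47 in the first with the replicate block in 2 and 61, 76 and 5 with the library set as covariate. Leaving out 1 library gave 0 to 22, 0 to 18 and 0 to 8 relative to Omp, with the highest counts without homozygous replicate 4, heterozygous replicate 1 and homozygous replicate 4, and 0 in all 3 comparisons per total counts.

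Leaving out 1 library at a time, the log2 fold change for homozygous against wild type ranged from -0.53 to 0.042 for Gucy2d, -0.021 to 0.47 for Gucy1b2, -0.057 to 0.13 for Pde2a, 0.34 to 1.23 for Cnga3 and -0.61 to -0.20 for Car2. For heterozygous against wild type it was -0.12 to 0.15, 0.026 to 0.61, -0.073 to 0.087, 0.38 to 1.33 and -0.56 to -0.15 in the same order of genes, and for homozygous against heterozygous -0.57 to 0.0049, -0.32 to 0.13, -0.072 to 0.13, -0.40 to 0.23 and -0.15 to -0.0034. Relative to Omp these ranges were -0.34 to 0.41, 0.057 to 0.60, -0.040 to 0.65, 0.50 to 1.38 and -0.16 to 0.038 in the first comparison, -0.25 to 0.49, 0.028 to 0.57, -0.25 to 0.44, 0.41 to 1.29 and -0.32 to -0.0069 in the second, and -0.37 to 0.071, -0.17 to 0.23, 0.13 to 0.27, -0.30 to 0.35 and -0.035 to 0.28 in the third.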
